A study of Mus musculus with 21 samples.

Results

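miR-297, miR-466, miR-467, and miR-669 are 4 mouse miRNA families whose hairpins were multiplied within an intron of *Sfmbt2*, an imprinted gene on chromosome 2 that encodes a Polycomb group protein. The members described here are all names in the deposited tables that begin with miR-297, miR-466, miR-467, or miR-669 followed by a letter or a hyphen, from either arm of the hairpin. They were 65 of the 1909 miRNA names counted in the virgin cohort, with 4 names of miR-297, 24 of miR-466, 11 of miR-467, and 26 of miR-669. They were 54 of 1841 names in the breeding trial cohort, with 3, 19, 10, and 22 names of these families. All 54 of these names were also in the virgin tables, and 10 of the 11 names found in the virgin tables alone were merged names such as miR-669a/o-3p. Merged names were read as pools of mature strands that the authors' matching could not separate. This reading rests on the names alone, since the authors' dictionaries were not available.

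Background to the cluster is as follows. miRNAs guide Argonaute proteins to messenger RNAs, mainly through pairing of a short seed near their 5′ end, and a hairpin can give a mature strand from its 5p arm, its 3p arm, or both. The *Sfmbt2* hairpins arose by repeated local duplication in the rodent lineage, so many of their mature strands are identical or nearly so, and the cluster is best known from the placenta.

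The study profiled small RNAs of whole pituitaries from adult female mice of the C57BL/6J background, staged for proestrus. *Zeb1 200H* mice were heterozygous and *Zeb1 200M* mice homozygous for a constitutive knock-in allele of *Zeb1* that miR-200a/b can no longer repress, and WT mice carried no copy. The virgin cohort comprised 3 WT (replicates 1, 2, and 4), 4 *Zeb1 200H*, and 4 *Zeb1 200M* libraries from mice 8–12 weeks old. The breeding trial cohort comprised 4 WT, 3 *Zeb1 200H* (replicates 1, 3, and 4), and 3 *Zeb1 200M* libraries from mice 28–36 weeks old that had been housed with males.

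Counted reads, the sum of all raw counts of a library, ranged from 3816917 (WT replicate 1) to 10806313 (WT replicate 2) in the virgin cohort. They ranged from 60037 (*Zeb1 200H* replicate 3) to 191650 (WT replicate 4) in the breeding trial cohort. Levels are given as CPM, the raw counts scaled to a common total of counted reads. A single read was worth 0.0925 to 0.262 CPM in the virgin libraries and 5.22 to 16.7 CPM in the breeding trial libraries. A count of 0 therefore allowed a level of up to 0.786 CPM in the least deep virgin library, and of up to 49.97 CPM in the least deep breeding trial library, by the limit of 3 counts. The tables hold reads without molecular identifiers, so this limit and the intervals below cover counting error only.

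Most members were detected in the virgin cohort, and few were counted well in the breeding trial cohort. A read was found for 61 of 65 members in the virgin cohort, and 46 had one in each of the 11 libraries. The 4 members at 0 in all virgin libraries were miR-466f-5p, miR-467g, miR-669g, and miR-669j. Of 54 breeding trial members 35 had a read, 11 had one in each of the 10 libraries, and 19 were at 0 throughout. A mean raw count of at least 10, the minimum for description of a member across genotypes, was reached by 46 virgin members, namely all 4 of miR-297, 18 of miR-466, 7 of miR-467, and 17 of miR-669. It was reached by 3 breeding trial members, miR-467a-5p, miR-669d-5p, and miR-669c-5p. The lowest mean count above this minimum was 11 and the highest below it 7.73 in the virgin cohort, and these were 11.9 and 8.8 in the breeding trial cohort.

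In the mouse genome build GRCm38.p6, RefSeq lists 81 hairpin genes of the 4 families, and 71 of them lie inside *Sfmbt2*. *Sfmbt2* spans 10370510 to 10595253 on chromosome 2 (225 kb, GENCODE M21), and the 71 hairpins occupy 10466663 to 10518279 within it, a stretch of 51.6 kb. All 71 lie on the plus strand and 0 overlap an exon of *Sfmbt2*. Of the 7 annotated *Sfmbt2* transcripts, 2 span the hairpins, and in both the hairpins fall in a common intron (10461473 to 10523944, 62.5 kb). This intron lies between exons 10 and 11 of Sfmbt2-201 and between exons 11 and 12 of Sfmbt2-205.

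The hairpins inside *Sfmbt2* comprise 5 of miR-297, 23 of miR-466, 14 of miR-467, and 29 of miR-669. Their starts are a median of 298.5 bases apart, and their span covers 82.6% of the intron. The families alternate along the intron, since 57 of the 70 pairs of neighbours belong to different families and the longest run of a family is 4 hairpins. A miR-669, a miR-467, and a miR-466 hairpin follow each other in this order 11 times, and 13 of the 14 miR-467 hairpins are followed by a miR-466 hairpin. The other 10 hairpins, 1 of miR-297, 5 of miR-466, 3 of miR-467, and 1 of miR-669, lie on 7 other chromosomes. Shared family names therefore did not mean a shared host gene.

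**Figure D1:**
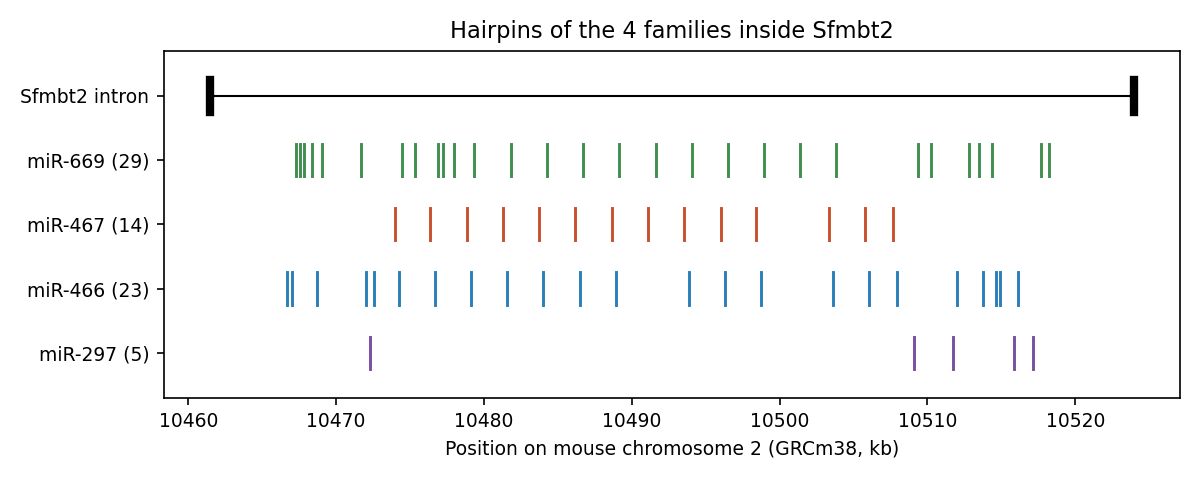
Positions of the 71 hairpins of miR-297, miR-466, miR-467, and miR-669 inside *Sfmbt2* on mouse chromosome 2 (x axis, kb, GRCm38), with a tick of fixed width at the midpoint of each hairpin, a row for each family (number of hairpins in brackets), and the intron as a line between exon marks. The hairpins fill 10466663 to 10518279, with miR-467 ticks only between 10473931 and 10507714, and miR-297 has 5 ticks.

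Members whose hairpins lie inside *Sfmbt2* carried most of the signal of the 4 families in these pituitaries. Of the virgin members 51 came from hairpins inside *Sfmbt2* alone, and they held 93.6% to 97.5% of member CPM in each library. The 8 members with hairpins outside alone held 0.958% to 3.00%, and the 6 members with hairpins in both places held 1.504% to 3.59%. The 42 breeding trial members from hairpins inside held 87.6% to 95.7%. The most abundant member from outside *Sfmbt2* was miR-466i-3p, whose hairpin lies on chromosome 13, with a mean of 52.3 CPM over the virgin libraries.

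Members with many hairpin copies had the highest median level in the virgin cohort, with exceptions in both directions. In the virgin cohort the 7 members with 5 or more hairpins inside *Sfmbt2* had a median level of 95.1 CPM, whereas the 37 members with a single hairpin there had a median of 7.48 CPM, and the 13 members with 2 to 4 hairpins had a median of 7.93 CPM. miR-467a-5p, with 10 hairpins, was the most abundant member, with a mean of 511 CPM. miR-669c-5p reached 184 CPM from a single hairpin, while miR-467a-3p, from the same 10 hairpins as miR-467a-5p, was at 1.55 CPM. miR-466b/o-5p and miR-297a/b/c-3p, with 9 and 5 hairpins there, were at 8.59 and 7.73 CPM. In the breeding trial cohort the 2 members with 5 or more hairpins, miR-467a-5p and miR-467a-3p, were at 341 and 0 CPM. A merged name adds up the hairpins matched to the strands it pools, so copy number and merging could not be told apart. The hairpin gene Mir466, inside *Sfmbt2*, matched no member name and was not assigned to miR-466a. The numbers for miR-466a/d/e-3p (2 hairpins) and miR-466a/p-5p (1 hairpin) therefore include none for miR-466a and may be too low.

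The RefSeq table of 1738 mature miRNAs held 8 strands of the 4 families, and 7 of these matched a member name in each cohort. All 8 derive from hairpins outside *Sfmbt2*, and 4 are shown here, since they show the repeat-like sequence of the families and how the seeds nevertheless differ. Capitals mark the seed, bases 2 to 8 from the 5′ end.
miR-466i-3p: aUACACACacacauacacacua
miR-466k: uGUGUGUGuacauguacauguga
miR-467f: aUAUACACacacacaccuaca
miR-669n: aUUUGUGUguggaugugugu
miR-466i-3p is encoded at chr13:17747552-17747573 (plus strand), miR-466k at chr3:85467396-85467418 (plus strand), miR-467f at chr11:69635419-69635439 (minus strand), and miR-669n at chr3:115979905-115979924 (plus strand).

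The 8 strands had 8 distinct seeds, and 0 of 28 pairs shared a seed, including pairs of a common family name. The longest identical start of any pair was 6 bases, so none of the 8 could be confused with another by matching the first 18 or 19 bases. All 8 were rich in alternating purine and pyrimidine steps, as 50% to 78.9% of their steps were CA, AC, GU, or UG, against a median of 28.6% over all 1738 mature strands. Of the 4 strands shown, miR-466i-3p averaged 52.3 CPM over the virgin libraries and miR-466k 10.1 CPM. miR-467f averaged 0.364 CPM, and miR-669n had a single read in the whole cohort.

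A library of the virgin cohort stood apart from the others before any comparison of genotypes. In WT replicate 1, the least deep of the virgin libraries, 8 of the 46 described members were above and 24 below their level in each of the other 10 libraries, which together made 69.6% of members. Over all 662 miRNAs with a mean raw count of at least 10, this share was 74.6%, so the members were not set apart from other miRNAs in it. Each of the other 10 libraries had 4.35% to 37.0% of members outside the range of the rest. The highest of these shares was that of *Zeb1 200H* replicate 3, with 17 members above each other library and 0 below, against 13.7% of all miRNAs in either direction.

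Members lay in both directions in WT replicate 1, as did other miRNAs, with 52.2% of members and 60.9% of all 662 miRNAs below each other library and 17.4% and 13.7% above. Below each other library were 3 of 4 miR-297, 11 of 18 miR-466, 9 of 17 miR-669, and 1 of 7 miR-467 members, and 3 of 7 miR-467 members were above. miR-467a-5p was at 902 CPM in WT replicate 1 and between 376.2 and 597 CPM in the other 10 libraries. miR-297c-5p was at 13.9 CPM in WT replicate 1 and between 89.8 and 162 CPM elsewhere. In this library the most abundant member was thus above, and the leading miR-297 strand below, the range of the other libraries.

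As a description of likeness across members, Pearson's r of log2 CPM over 45 members was 0.900 to 0.941 in the 10 pairs of libraries that included WT replicate 1 and 0.978 to 0.994 in the 45 other pairs. Members are not independent replicates, so no p value is attached. Virgin comparisons of the members with WT are therefore given below with and without WT replicate 1. Where libraries are said to lie above or below others, this refers to the CPM scale unless TMM scaling is named, the normalization for library composition that edgeR applies.

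Outside WT replicate 1, miR-669 held 42.7% to 45.2% of member reads in the virgin libraries and miR-467 29.3% to 31.5%, with overlap between WT and mutants. miR-466 held 18.9% and 19.1% in the 2 other WT libraries and 17.7% to 18.7% in the mutants, and miR-297 held 6.48% and 6.39% in these WT libraries and 6.97% to 7.92% in the mutants. In WT replicate 1 miR-669 held 39.1%, miR-467 47.4%, miR-466 12.2%, and miR-297 1.34%. 5p names held 62.7% to 65.3% of member reads in the 10 other virgin libraries and 71.8% in WT replicate 1. The 5p strands were thus the larger part in all 11 virgin libraries.

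A few members made up most of the signal. The most abundant 10 of 65 members held 72.8% to 79.9% of member reads in each virgin library, and the most abundant, miR-467a-5p, held 17.0% to 33.0%. The median of the mean levels of the 46 described members was 18.2 CPM and the lowest 1.16 CPM. All members added up to 0.217% to 0.320% of the counted reads of a virgin library.

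miR-467a-5p was at 902 (replicate 1), 395, and 376.2 CPM in WT, at 459, 467.1, 597, and 473 CPM in *Zeb1 200H*, and at 407, 513, 485.1, and 544.2 CPM in *Zeb1 200M* libraries of the virgin cohort. WT replicate 1 was above all mutant libraries, whereas both other WT libraries were below all 8 of them. miR-669a/o-3p, a merged name with 13 hairpins, was at 461, 393, and 401 CPM in WT, at 433, 485.3, 568, and 468 CPM in *Zeb1 200H*, and at 385, 453, 532, and 507 CPM in *Zeb1 200M* libraries. Its genotypes overlapped. miR-669c-5p was at 254, 155, and 159 CPM in WT, at 177, 172, 216, and 171 CPM in *Zeb1 200H*, and at 145, 189, 182.6, and 202 CPM in *Zeb1 200M* libraries. It too was highest in WT replicate 1 and overlapped between genotypes.

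miR-669d-5p was at 88.8, 115, and 124.5 CPM in WT, at 140.3, 151, 168, and 127 CPM in *Zeb1 200H*, and at 123, 153.9, 155, and 158 CPM in *Zeb1 200M* libraries. All *Zeb1 200H* libraries were above all WT libraries, while *Zeb1 200M* replicate 1 lay just under the highest WT library. miR-466a/d/e-3p, the most abundant miR-466 name, was at 78.9, 117, and 113 CPM in WT, at 132, 137.8, 179, and 136 CPM in *Zeb1 200H*, and at 121, 148, 150.1, and 139 CPM in *Zeb1 200M* libraries. All 8 mutant libraries were above all 3 WT libraries, though not after TMM scaling. miR-467e-5p was at 125, 100.1, and 93.3 CPM in WT, at 123.6, 126, 139, and 113 CPM in *Zeb1 200H*, and at 111, 123.9, 133, and 138.2 CPM in *Zeb1 200M* libraries. WT replicate 1 lay among the mutant libraries, and the other WT libraries were below them.

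miR-669a/p-5p was at 96.4, 91.4, and 101 CPM in WT, at 103, 110.2, 133, and 113 CPM in *Zeb1 200H*, and at 103, 133, 119, and 137.1 CPM in *Zeb1 200M* libraries. WT libraries were lowest, by a margin that was small beside the spread of the mutants. miR-297c-5p, the leading strand of its family, was at 13.9, 91.7, and 89.8 CPM in WT, at 122, 131, 162, and 123 CPM in *Zeb1 200H*, and at 115, 126, 137.2, and 119.8 CPM in *Zeb1 200M* libraries. All mutant libraries were above all WT libraries, with and without WT replicate 1 and also after TMM scaling. miR-669b-5p was at 45.8, 86.6, and 91.7 CPM in WT, at 96.6, 103, 113, and 101 CPM in *Zeb1 200H*, and at 80.4, 108, 103, and 119 CPM in *Zeb1 200M* libraries. *Zeb1 200M* replicate 1 overlapped WT, and the other mutant libraries were higher. miR-466b/c/p-3p was at 119, 83.7, and 91.4 CPM in WT, at 93.3, 94.8, 109, and 92.8 CPM in *Zeb1 200H*, and at 77.7, 98.4, 88.9, and 96.5 CPM in *Zeb1 200M* libraries. The highest value was that of WT replicate 1, and the groups overlapped.

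Just below these in level, miR-467d-5p was at 173, 65.0, and 80.2 CPM in WT, at 84.2, 78.7, 98.7, and 91.2 CPM in *Zeb1 200H*, and at 72.9, 108, 89.6, and 98.2 CPM in *Zeb1 200M* libraries. Like miR-467a-5p it was highest in WT replicate 1, and the genotypes overlapped. miR-466c-5p was at 14.1, 43.0, and 44.9 CPM in WT, at 49.6, 49.6, 57.3, and 49.2 CPM in *Zeb1 200H*, and at 42.4, 51.0, 50.7, and 49.997 CPM in *Zeb1 200M* libraries. All *Zeb1 200H* libraries were above WT, and *Zeb1 200M* replicate 1 was within the WT range. Among the members given so far, miR-297c-5p alone kept WT and mutant libraries apart after TMM scaling with WT replicate 1 included.

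**Figure D2:**
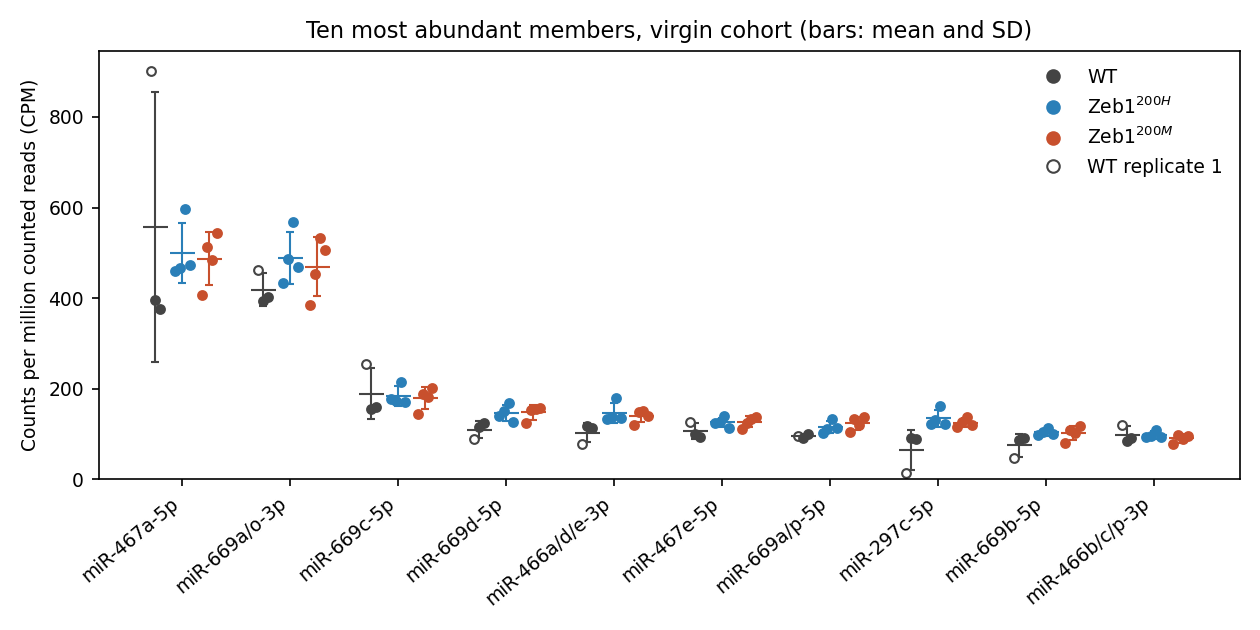
CPM (y axis, from 0) of the 10 most abundant members in the virgin cohort (x axis), with a point for each library (3 WT, 4 *Zeb1 200H*, 4 *Zeb1 200M*), a bar at each group's mean, error lines of 1 SD, and WT replicate 1 as an open point. WT replicate 1 is the highest point for miR-467a-5p (902 CPM) and the lowest for miR-297c-5p (13.9 CPM), while the other 2 WT libraries lie at or below most mutant libraries.

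The comparisons with WT asked whether members of the cluster differed when *Zeb1* was released from miR-200a/b. For *Zeb1 200M* against WT in the virgin cohort, 46 members passed the filter on low counts and 19 did not. By the edgeR quasi-likelihood F test with Benjamini-Hochberg adjustment over all miRNAs at a threshold of 0.05, 0 of 46 members differed, against 6.49% of all miRNAs tested. At an unadjusted p under 0.05 edgeR gave 3 members, miR-669f-5p, miR-669d-2/l-3p, and miR-297a-5p, all 3 higher, against 22.1% of all miRNAs. DESeq2 gave 4, of which 3 were higher, against 13.7%, and limma voom with sample quality weights gave 6, all higher, against 38.8%. After Benjamini-Hochberg adjustment DESeq2 called 0 members, against 6.53% of all miRNAs, and limma voom 2 of 46, against 27.1%. The median log2 fold change of the tested members was 0.05, against −0.00 over all tested miRNAs, with 26 members above and 20 below 0.

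Without WT replicate 1, edgeR with Benjamini-Hochberg adjustment called 3 of 47 tested members higher in *Zeb1 200M* and 0 lower, against 23.9% of all miRNAs. miR-669f-5p was at 10.2, 12.8, and 14.5 CPM in WT, at 15.5, 20.9, 22.5, and 22.3 CPM in *Zeb1 200H*, and at 19.3, 24.7, 23.3, and 25.2 CPM in *Zeb1 200M* libraries. Its log2 fold change without WT replicate 1 was 0.60 (SE 0.16, adjusted p = 0.0200), with 4 of 4 *Zeb1 200M* libraries above both WT libraries. miR-297b-5p was at 4.72, 5.27, and 3.65 CPM in WT, at 7.21, 11.2, 9.52, and 8.07 CPM in *Zeb1 200H*, and at 7.23, 9.15, 9.41, and 8.77 CPM in *Zeb1 200M* libraries. Its log2 fold change was then 0.78 (SE 0.23, adjusted p = 0.0308), again with all 4 libraries higher. For miR-297c-5p, higher in 4 of 4 libraries, it was 0.29 (SE 0.10, adjusted p = 0.0494). Thus 2 of the 3 members called belonged to miR-297, although the share of members called was below that of all miRNAs.

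For virgin *Zeb1 200H* against WT, edgeR with Benjamini-Hochberg adjustment called 0 of 47 tested members, against 5.06% of all miRNAs, with 18 members not tested. At an unadjusted p under 0.05 edgeR gave 7 members, against 19.5% of all miRNAs, DESeq2 7, against 11.7%, and limma voom 9, against 34.5%, all of them higher. After Benjamini-Hochberg adjustment DESeq2 called 0 members, against 4.93% of all miRNAs, and limma voom 6 of 47, all higher, against 22.6%. The median log2 fold change was 0.18 over the members and 0.01 over all miRNAs, with 27 members above and 20 below 0. With *Zeb1 200H* replicate 3 alone left out, the medians were 0.06 and −0.00, with 25 members above and 19 below 0. At an unadjusted p under 0.05 edgeR then gave 2 of 44 members, against 95 of 648 miRNAs. Leaving out WT replicate 1, edgeR called 5 of 48 members higher and 0 lower, against 21.6% of all miRNAs. These were miR-297a-5p, miR-297b-5p, miR-297c-5p, miR-466i-3p, and miR-467c/d/e-3p, which included 3 of the 4 miR-297 names.

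miR-297a-5p was at 16.8, 39.2, and 40.2 CPM in WT, at 51.3, 61.5, 66.5, and 55.8 CPM in *Zeb1 200H*, and at 48.1, 54.0, 60.2, and 65.5 CPM in *Zeb1 200M* libraries. All mutant libraries were above all WT libraries, also after TMM scaling. miR-467c/d/e-3p was at 32.5, 61.4, and 57.8 CPM in WT, at 75.0, 86.7, 90.2, and 88.6 CPM in *Zeb1 200H*, and at 66.5, 87.6, 86.4, and 82.3 CPM in *Zeb1 200M* libraries. WT and mutants did not overlap here either, but *Zeb1 200M* and WT did after TMM scaling. miR-466i-3p, the strand from chromosome 13 shown above, was at 17.3, 40.9, and 43.6 CPM in WT, at 52.6, 58.5, 68.6, and 64.0 CPM in *Zeb1 200H*, and at 40.04, 66.2, 64.7, and 58.8 CPM in *Zeb1 200M* libraries. *Zeb1 200M* replicate 1 was within the WT range, and the other 7 mutant libraries were above it.

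The edgeR log2 fold change in *Zeb1 200H* without WT replicate 1 was 0.44 for miR-297a-5p (adjusted p = 0.0247) and 0.87 for miR-297b-5p (adjusted p = 0.0246), each higher in 4 of 4 libraries. It was 0.44 for miR-297c-5p (adjusted p = 0.0267), 0.40 for miR-466i-3p (adjusted p = 0.0390), and 0.38 for miR-467c/d/e-3p (adjusted p = 0.0246), also each higher in 4 of 4 libraries. With WT replicate 1 the same log2 fold changes were 0.59, 0.67, 0.84, 0.57, and 0.45, and 0 of the 5 passed the threshold. WT libraries were shared by both comparisons, so their values stand side by side and are not independent.

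Many members were higher in all mutant libraries than in all WT libraries on the CPM scale, but so were many other miRNAs. In *Zeb1 200M* 13 of 46 members (28.3%) were higher without overlap, against 30.7% of all 662 miRNAs past the minimum, and 0 were lower, against 4.68%. In *Zeb1 200H* 22 of 46 (47.8%) were higher, against 28.5%, and 0 were lower, against 4.83%. These counts without WT replicate 1 were 19 in *Zeb1 200M*, against 37.6%, and 29 in *Zeb1 200H*, against 34%, and 0 members were lower in either, against 12.1% and 11.5%. After TMM scaling 6 members were higher in *Zeb1 200M*, against 13.9%, and 9 in *Zeb1 200H*, against 13.7%, and 0 were lower, against 12.4% and 12.1%. With TMM scaling and without WT replicate 1 there were 9, against 21.5%, and 17, against 21.8%, and 0 lower, against 23.3% and 21.3%. Of the 46 members, 3 reached the minimum mean count only with mutant libraries included.

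The change of scale matters here, since the median log2 ratio of mean CPM over all 662 miRNAs was 0.35 for *Zeb1 200M* and 0.31 for *Zeb1 200H* against WT, and it was 0.00 for both after TMM scaling. Relative to that median, members were 0.09 and 0.19 higher on the CPM scale and 0.07 and 0.18 higher on the TMM scale. Leaving out WT replicate 1, the median over all miRNAs was 0.19 and 0.14 in CPM, and members were 0.15 and 0.20 higher than it, or 0.15 and 0.21 on the TMM scale.

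Summed over all members, CPM was 2735, 2169, and 2210.2 in virgin WT, 2548, 2695, 3200.1, and 2614 in *Zeb1 200H*, and 2257, 2811, 2820.5, and 2911 in *Zeb1 200M* libraries. WT replicate 1 lay among the mutant libraries, and the other WT libraries were below all 8 of them, which did not hold after TMM scaling. The group means were 2371.5 ± 315 (SD, n = 3) in WT, 2764 ± 296.7 (SD, n = 4) in *Zeb1 200H*, and 2699.7 ± 298 (SD, n = 4) in *Zeb1 200M*, so the genotypes differed by little more than 1 SD. The ratio to WT was 1.14 in *Zeb1 200M* and 1.17 in *Zeb1 200H*, and it flipped to 0.825 and 0.874 after TMM scaling, where the sum of WT replicate 1 was 4442.6 CPM. Without WT replicate 1 the WT mean was 2189.8 ± 28.8 (SD, n = 2), and the ratios were 1.23 and 1.26, or 1.09 and 1.15 after TMM scaling.

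With WT replicate 1 included, the direction of the sum was not the same in all families, and no test of this was made. Without it, the ratios of all 4 families were above 1 on both scales in both genotypes. The miR-297 sum was 36.7, 140.5, and 141.2 CPM in WT, 189.9, 213, 247, and 198 CPM in *Zeb1 200H*, and 176, 198, 216, and 203 CPM in *Zeb1 200M* libraries, so all mutant libraries were above all WT libraries. Its ratio to WT was above 1 on both scales, at 1.87 in *Zeb1 200M* (1.55 after TMM scaling) and 2.00 in *Zeb1 200H* (1.71 after TMM scaling). It was 1.41 (1.24) and 1.51 (1.37) without WT replicate 1. The miR-467 sum was 1297, 660.3, and 647 CPM in WT, 793, 809, 986, and 807 CPM in *Zeb1 200H*, and 704, 885, 843, and 916 CPM in *Zeb1 200M* libraries. Its ratio to WT in *Zeb1 200M* was 0.964 (0.664 after TMM scaling) with WT replicate 1 and flipped to 1.28 (1.13 after TMM scaling) without it. The direction of miR-297 thus held on each of these scales, and that of miR-467 depended on a single library.

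miR-466 and miR-669 sums lay between these cases. The miR-466 ratio to WT in *Zeb1 200M* was 1.27, and it flipped to 0.961 after TMM scaling, while in *Zeb1 200H* it was 1.33, or 1.04 after TMM scaling. The miR-669 ratio was 1.16 in *Zeb1 200M* and 1.177 in *Zeb1 200H*, and it flipped to 0.855 and 0.895 after TMM scaling. Without WT replicate 1 the ratios of both families were above 1 on both scales in both genotypes, from 1.04 for miR-466 in *Zeb1 200M* after TMM scaling to 1.24 for miR-466 in *Zeb1 200H* on the CPM scale.

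The breeding trial cohort had far fewer counted reads, and here the cluster was seen through its most abundant strands. Of the 10 most abundant members of each cohort, 6 were in both lists. miR-467a-5p led in both cohorts, with 24.5% to 33.8% of member reads in the breeding trial libraries. The breeding trial dictionary listed no merged names, so miR-669a/o-3p, next after miR-467a-5p in the virgin cohort, had no counterpart there. miR-669p-3p averaged 50.3 CPM in the breeding trial and 0.386 CPM in the virgin cohort, and levels of single names were therefore not compared between cohorts.

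miR-467a-5p was higher in both mutant genotypes of the breeding trial cohort in all libraries. It was at 162, 263, 249.7, and 277 CPM in WT, at 373, 366, and 380.7 CPM in *Zeb1 200H*, and at 491, 410.7, and 439.7 CPM in *Zeb1 200M* libraries. The 3 genotypes did not overlap, with *Zeb1 200M* highest and WT lowest. The raw counts behind these levels were 25, 30, 21, and 53 in WT, 41, 22, and 50 in *Zeb1 200H*, and 43, 51, and 54 in *Zeb1 200M* libraries.

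miR-669d-5p was at 90.6, 43.9, 11.9, and 36.5 CPM in WT, at 118, 83.3, and 190.4 CPM in *Zeb1 200H*, and at 205, 169, and 163 CPM in *Zeb1 200M* libraries. The *Zeb1 200M* libraries were above all WT libraries, and 1 *Zeb1 200H* library, replicate 3, overlapped WT replicate 1. miR-669c-5p was at 38.8, 105, 23.8, and 83.5 CPM in WT, at 45.5, 133, and 145 CPM in *Zeb1 200H*, and at 239.5, 88.6, and 155 CPM in *Zeb1 200M* libraries. Its groups overlapped, since WT replicate 2 was above *Zeb1 200M* replicate 2. miR-467d-5p, below the minimum mean count, was at 19.4, 35.1, 71.3, and 52.2 CPM in WT, at 36.4, 16.7, and 159.9 CPM in *Zeb1 200H*, and at 114, 105, and 130.3 CPM in *Zeb1 200M* libraries. All 3 *Zeb1 200M* libraries were above all WT libraries, while *Zeb1 200H* libraries lay on both sides.

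For *Zeb1 200M* against WT in the breeding trial cohort, edgeR with Benjamini-Hochberg adjustment over all miRNAs called 4 of 4 tested members, all 4 higher, against 35.9% of all miRNAs tested. The other 50 of the 54 members did not pass the filter on low counts. The filter asked for 3 libraries at 81.4 CPM or more, which WT libraries met alone for miR-467a-5p only. miR-467d-5p, miR-669c-5p, and miR-669d-5p passed it through the *Zeb1 200M* libraries, the group in which they were high, so this count gives no support for a direction of the cluster. In bulk tissue a higher number of cells of a type and more RNA in each cell cannot be told apart. Nor can this genotype be told apart from the litter history given above.

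miR-669d-5p rose by a log2 fold change of 1.58 (SE 0.36, 3.00-fold, edgeR adjusted p = 0.00136), and 3 of 3 *Zeb1 200M* libraries were above all WT libraries. miR-467d-5p rose by 1.20 (SE 0.37, 2.30-fold, edgeR adjusted p = 0.0144), also in 3 of 3 libraries. miR-467a-5p rose by 0.67 (SE 0.21, 1.59-fold, edgeR adjusted p = 0.0157), likewise in 3 of 3 libraries. For miR-669c-5p the log2 fold change was 0.98 (SE 0.38, 1.97-fold, edgeR adjusted p = 0.0469), with 2 of 3 libraries above all WT libraries. Since 3 of these 4 passed the filter through the group in which they were high, their values without a filter stand beside these. Without it, edgeR with Benjamini-Hochberg adjustment gave 1.54 for miR-669d-5p (adjusted p = 0.000314), 1.16 for miR-467d-5p (adjusted p = 0.0352), and 0.63 for miR-467a-5p (adjusted p = 0.0281). miR-669c-5p, at 0.94 (adjusted p = 0.0529), did not pass the threshold in that fit.

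Without a filter on low counts edgeR called 3 of 35 members, against 13.3% of all miRNAs, with a median log2 fold change of 0.55 over the 35 and −0.01 over all miRNAs, and 25 members were above and 10 below 0. DESeq2, fitted to the same 35, called 1, miR-669d-5p, against 10.3% of all miRNAs fitted. Any miRNA to which DESeq2 gave no adjusted p counts as not called here. limma voom, with the filter, called 4 of 4, against 38.8%. With the filter and the replicate number as a block, edgeR called 2 of 4, miR-467a-5p and miR-669d-5p, against 31.5%. With the filter and WT replicate 1 left out edgeR called 1 of 4, against 29.1%, and without *Zeb1 200M* replicate 1 or replicate 3 it called 2 of 4, against 27.1% and 29.9%.

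For *Zeb1 200H* against WT in the breeding trial cohort, edgeR with Benjamini-Hochberg adjustment called 1 of 3 tested members, against 12% of all miRNAs tested. miR-669d-5p rose by a log2 fold change of 1.32 (SE 0.42, 2.49-fold, edgeR adjusted p = 0.0445), with 2 of 3 *Zeb1 200H* libraries above all WT libraries. It passed the filter only with *Zeb1 200H* libraries included, and without a filter it was the 1 member of 33 called (log2 fold change 1.30, edgeR adjusted p = 0.0218), against 4.64% of all miRNAs. miR-467a-5p had a log2 fold change of 0.48 (SE 0.23, adjusted p = 0.172), with 3 of 3 libraries above all WT libraries. For miR-669c-5p, with 2 of 3 libraries above all WT libraries, the log2 fold change was 0.51 (SE 0.44, adjusted p = 0.484), and neither of these members passed the threshold.

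In this comparison, deviations from the genotype mean correlated at 0.146 to 0.172 in the 3 pairs of libraries of the same number. Pairs of unlike number ranged from −0.329 to 0.152, so these ranges overlapped. With the replicate number as a replicate block, edgeR with Benjamini-Hochberg adjustment called 0 of 3 members, against 17.6% of all miRNAs, with 2 at an unadjusted p under 0.05, against 29.6%, and miR-669d-5p at a log2 fold change of 1.28 (adjusted p = 0.0679). DESeq2 and limma voom also called 0 members, against 3.77% and 13.9%. miR-669d-5p was called by edgeR or another tool in 4 of 12 alternative settings, with adjusted p from 0.0218 to 0.294. With a library left out, it was called without *Zeb1 200H* replicate 3 and not without any of the other libraries with which it could be tested, and without WT replicate 1 it did not pass the filter.

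Not overlapping in CPM, and higher in *Zeb1 200M* than in WT, were 2 of the 3 described breeding trial members, miR-467a-5p and miR-669d-5p, against 33.3% of 264 miRNAs past the minimum, and 0 were lower, against 8.71%. For *Zeb1 200H* against WT this held for 1 of 3, miR-467a-5p, against 23.9%, and 0 were lower, against 5.3%. The same members were higher after TMM scaling, against 20.1% and 12.5%, and 0 were lower, against 19.7% and 10.2%. miR-669d-5p and miR-669c-5p had mean raw counts of 6.75 and 9 in WT and reached the minimum only through the mutant libraries, so these counts give no support for a direction. The median log2 ratio of mean CPM over all 264 miRNAs was 0.23 for *Zeb1 200M* and 0.15 for *Zeb1 200H* against WT, and it was 0.01 and −0.02 after TMM scaling.

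**Figure D3:**
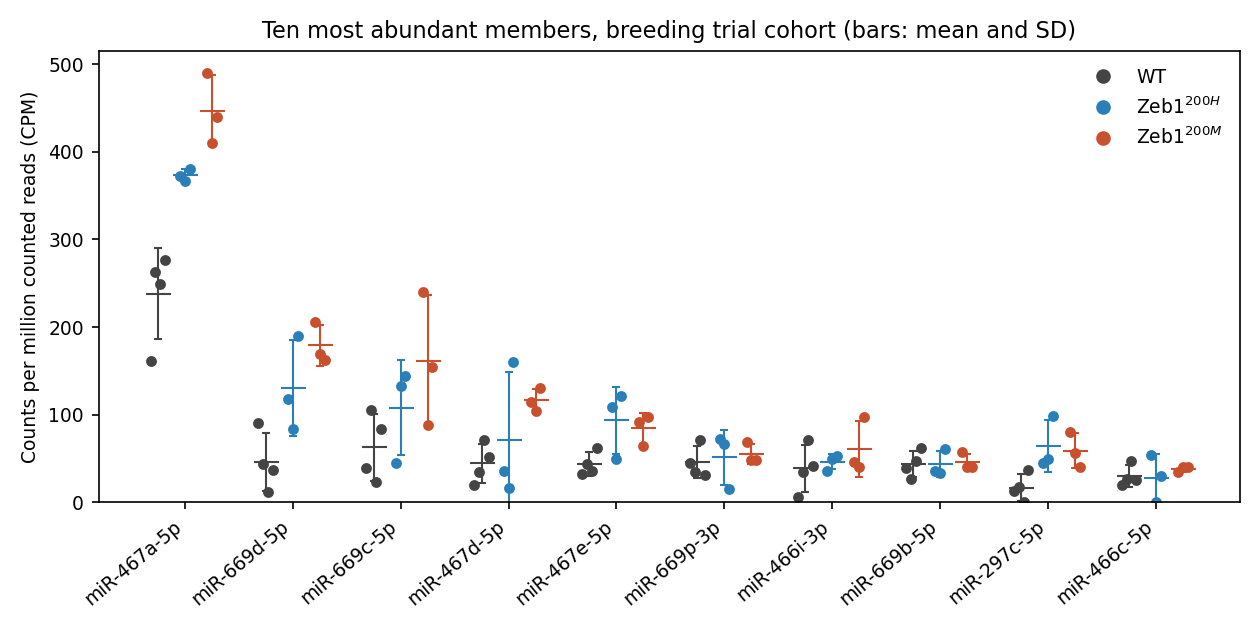
CPM (y axis, from 0) of the 10 most abundant members in the breeding trial cohort (x axis), with a point for each library (4 WT, 3 *Zeb1 200H*, 3 *Zeb1 200M*), a bar at each group's mean, and error lines of 1 SD. For miR-467a-5p the 4 WT libraries lie between 162 and 277 CPM and the 6 mutant libraries between 366 and 491 CPM, while most other members overlap between genotypes.

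The remaining members among the 10 most abundant of this cohort rested on 16 reads or fewer per library. miR-467e-5p was at 32.4, 43.9, 35.7, and 62.6 CPM in WT, at 109, 49.97, and 122 CPM in *Zeb1 200H*, and at 91.3, 64.4, and 97.7 CPM in *Zeb1 200M* libraries. All *Zeb1 200M* libraries were above all WT libraries in CPM, by a narrow margin that was lost after TMM scaling (60.5 in *Zeb1 200M* replicate 2 and 70.1 in WT replicate 4). miR-297c-5p was at 12.9, 17.6, 0, and 36.5 CPM in WT, at 45.5, 49.97, and 98.99 CPM in *Zeb1 200H*, and at 79.8, 56.4, and 40.7 CPM in *Zeb1 200M* libraries. All 6 mutant libraries were above all 4 WT libraries, as in the virgin cohort, on counts of 0 to 13 reads. After TMM scaling *Zeb1 200M* replicate 3 (37.4) was below WT replicate 4 (40.9).

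miR-669p-3p was at 45.3, 35.1, 71.3, and 31.3 CPM in WT, at 72.7, 66.6, and 15.2 CPM in *Zeb1 200H*, and at 68.4, 48.3, and 48.9 CPM in *Zeb1 200M* libraries. miR-466i-3p, the most abundant miR-466 name here, was at 6.47, 35.1, 71.3, and 41.7 CPM in WT, at 36.4, 49.97, and 53.3 CPM in *Zeb1 200H*, and at 45.6, 40.3, and 97.7 CPM in *Zeb1 200M* libraries. Both overlapped between all genotypes. miR-669b-5p was at 38.8, 26.3, 47.6, and 62.6 CPM in WT, at 36.4, 33.3, and 60.9 CPM in *Zeb1 200H*, and at 57.0, 40.3, and 40.7 CPM in *Zeb1 200M* libraries. miR-466c-5p was at 19.4, 26.3, 47.6, and 26.1 CPM in WT, at 54.5, 0, and 30.5 CPM in *Zeb1 200H*, and at 34.2, 40.3, and 40.7 CPM in *Zeb1 200M* libraries. These strands also overlapped between genotypes.

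Counting every member with a read, 27 of 35 had a higher mean CPM in *Zeb1 200M* than in WT of the breeding trial cohort and 8 a lower one. In *Zeb1 200H* 26 of 33 were higher and 7 lower. Among virgin members 48 of 61 were higher and 13 lower in *Zeb1 200M*, and without WT replicate 1 these were 54 and 6 of 60. In virgin *Zeb1 200H* 51 of 60 were higher and 9 lower, and without WT replicate 1 these were 52 and 8. These counts hold for the CPM scale, on which the median of all miRNAs was also above 0 in each of these comparisons. In edgeR with TMM scaling and no filter, 37 of 61 virgin members were above and 24 below 0 in *Zeb1 200M*. For virgin *Zeb1 200H* these were 39 and 21 of 60. In the breeding trial they were 25 and 10 of 35 in *Zeb1 200M* and 23 and 10 of 33 in *Zeb1 200H*. The medians over all miRNAs in these 4 fits were 0.12, 0.08, −0.01, and −0.03.

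Summed over all members, CPM in the breeding trial cohort was 595, 799, 785, and 939 in WT, 1191, 1083, and 1553 in *Zeb1 200H*, and 1802, 1321, and 1515 in *Zeb1 200M* libraries. All 6 mutant libraries were above all 4 WT libraries in CPM. After TMM scaling *Zeb1 200H* replicate 3 (1044) was just below WT replicate 4 (1051.7), and the other mutant libraries stayed above WT. Reads behind the sums numbered 66 to 180 per WT library, 65 to 204 per *Zeb1 200H* library, and 158 to 186 per *Zeb1 200M* library. The exact 95% intervals (Clopper-Pearson) of the nearest libraries overlapped, with 807 to 1087 CPM for WT replicate 4 and 836 to 1380 CPM for *Zeb1 200H* replicate 3.

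The group means of this sum were 779.5 ± 141.2 (SD, n = 4) in WT, 1276 ± 247 (SD, n = 3) in *Zeb1 200H*, and 1546 ± 242 (SD, n = 3) in *Zeb1 200M*. The ratio to WT was 1.98 in *Zeb1 200M* and 1.64 in *Zeb1 200H*, and after TMM scaling it was 1.70 and 1.45, so the direction of the means was the same on both scales. The 4 families had mean sums above WT in both genotypes on both scales. For miR-297 these were 35.8 CPM in WT, 98.7 in *Zeb1 200H*, and 113.6 in *Zeb1 200M*, and for miR-467 they were 347, 564, and 689 CPM. For miR-669 they were 284, 453, and 547 CPM, and for miR-466 they were 113, 160.4, and 195 CPM. miR-297 had the largest ratio to WT in *Zeb1 200M* of both cohorts, at 3.18 in the breeding trial and 1.87 in the virgin cohort. The miR-297 sums of the breeding trial libraries were 19.4, 43.9, 11.9, and 67.8 CPM in WT, 90.9, 83.3, and 122 CPM in *Zeb1 200H*, and 114, 113, and 114 CPM in *Zeb1 200M*, so the mutant libraries were above all WT libraries in this cohort as well, also after TMM scaling. These sums rest on 3, 5, 1, and 13 reads in WT and 5 to 16 reads in each mutant library, and the exact 95% intervals (Clopper-Pearson) of WT replicate 4 (36.1 to 116 CPM) and *Zeb1 200H* replicate 3 (27.0 to 194 CPM) overlapped. No test was made of sums over members.

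**Figure D4:**
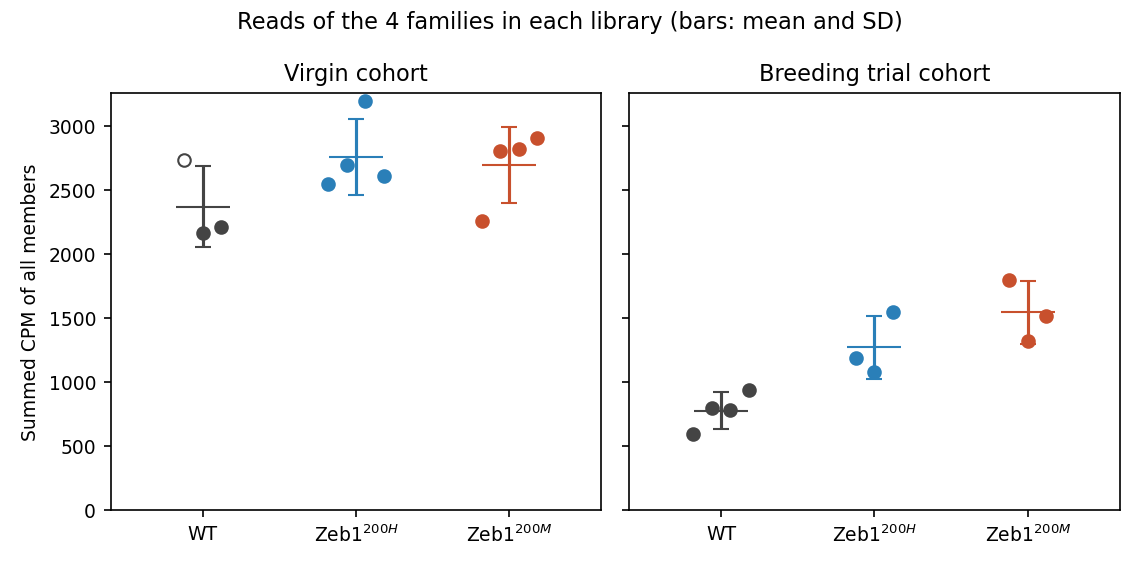
Summed CPM of all members (y axis, from 0) in each library of the virgin and breeding trial cohorts (x axis, genotypes), with points for libraries, a bar for each group's mean, and error lines of 1 SD. In the virgin cohort WT replicate 1 (open point, 2735 CPM) lies among the mutant libraries, while in the breeding trial cohort the mutant libraries (1083 to 1802 CPM) lie above WT (595 to 939 CPM).

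*Zeb1 200M* was compared with *Zeb1 200H* to ask whether homozygous and heterozygous carriers of the allele differed. In the virgin cohort edgeR with Benjamini-Hochberg adjustment called 0 of 46 tested members, against 2.22% of all miRNAs, with 1 member at an unadjusted p under 0.05, against 9.33%. DESeq2 and limma voom called 0 after the same adjustment, against 1.47% and 2.22%. The median log2 fold change was −0.10 over the members and −0.01 over all miRNAs, with 9 members above and 37 below 0. Without *Zeb1 200H* replicate 3, the library in which 17 members were above each other library, the median was 0.00 for members and for all miRNAs, with 24 above and 22 below 0. In CPM 0 of the 46 members were without overlap in either direction, against 6.04% of all miRNAs higher and 1.96% lower. After TMM scaling 1 member, miR-297a/b/c-3p, was lower, against 3.78%, and 0 were higher, against 1.96%.

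In the breeding trial cohort edgeR with Benjamini-Hochberg adjustment called 0 of 5 tested members between *Zeb1 200M* and *Zeb1 200H*, against 1.09% of all miRNAs, with 0 at an unadjusted p under 0.05, against 14.6%. After the same adjustment DESeq2 and limma voom called 0, against 0.449% and 1.82%. The log2 fold changes were 0.20 for miR-467a-5p, 0.41 for miR-467d-5p, 0.49 for miR-669c-5p, 0.28 for miR-669d-5p, and −0.32 for miR-467e-5p. miR-467a-5p was higher without overlap in *Zeb1 200M*, against 11.7% of all miRNAs, and 0 of the 3 described members were lower, against 6.82%. After TMM scaling these were also 1 and 0, against 8.71% in each direction. The summed CPM of the members was 1.21 times that of *Zeb1 200H*, or 1.17 times after TMM scaling, and both groups overlapped.

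The change in the mutants against WT was also compared between the cohorts, as an interaction of cohort and genotype in edgeR with Benjamini-Hochberg adjustment. Of 27 members tested, 0 differed for *Zeb1 200M* and 0 for *Zeb1 200H*, against 0% of all miRNAs tested. At an unadjusted p under 0.05 there were 4 members for *Zeb1 200M*, against 5.57% of all miRNAs, with a log2 difference between cohorts of 1.35 for miR-467a-5p, 1.89 for miR-467d-5p, 1.52 for miR-669c-5p, and 1.49 for miR-669d-5p. For *Zeb1 200H* there were 2, against 4.7%, with 1.14 for miR-467e-5p and 1.24 for miR-669d-5p. When virgin WT replicate 1 was left out, 0 of 11 tested members passed in either genotype, against 0% of all miRNAs, and the same 4 differences for *Zeb1 200M* were 0.50, 1.04, 0.96, and 1.47, each at an unadjusted p under 0.05, against 10.2% of all miRNAs. For *Zeb1 200H* they were then 0.72 for miR-467e-5p and 1.16 for miR-669d-5p, and 1 of these, miR-669d-5p, stayed at an unadjusted p under 0.05, against 6.54%. Without a filter on low counts, and with virgin WT replicate 1 included, 2 members passed for *Zeb1 200M*, miR-467a-5p and miR-467d-5p, against 0.403% of all miRNAs. For *Zeb1 200H* 0 passed, against 0.159%. In virgin WT replicate 1, miR-467a-5p and miR-467d-5p were at 2.34 and 2.38 times the mean of the other virgin WT libraries. The fit without a filter was not made without that library. Age, breeding, RNA input, sequencer, and dictionary of names differed between the cohorts along with their depth, and these cannot be told apart.

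Lists of miRNAs of other origin show what else moved in the same libraries. Of a list of pituitary and endocrine miRNAs (miR-7a/b, miR-375, the miR-200 superfamily, miR-182, and miR-183), none of the 11 names found in the virgin cohort was at 0 in all libraries, and miR-7a-5p, which is abundant in pituitary endocrine cells, was the most abundant. edgeR with Benjamini-Hochberg adjustment called 8 of 11 lower in *Zeb1 200M* and 8 in *Zeb1 200H* against WT, and 0 higher, against 6.49% and 5.06% of all miRNAs, with median log2 fold changes of −2.42 and −1.79. It called 9 and 9 without WT replicate 1, against 23.9% and 21.6%, with medians of −2.32 and −1.70. Called lower in the breeding trial cohort were 9 and 8 of 10, against 35.9% and 12% of all miRNAs called. The miR-200 superfamily, which represses *Zeb1*, makes up 5 of the 10 miRNAs listed and is the subject of the study, so these counts are not independent evidence of a direction.

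Summed CPM of this list was 438458, 326231, and 329560.0 in virgin WT, 277888, 265203, 291942, and 276886 in *Zeb1 200H*, and 239082, 263740.0, 242464, and 287415 in *Zeb1 200M* libraries. For the breeding trial libraries it was 372485, 350299, 379282, and 355080.0 in WT, 302037, 283558, and 276987 in *Zeb1 200H*, and 260583, 268814, and 254385 in *Zeb1 200M* libraries. In this sum all mutant libraries of each cohort were below all WT libraries. The most abundant name, miR-7a-5p, overlapped between WT and both mutant genotypes in each cohort. WT libraries spanned 117503 to 183265 CPM (virgin) and 102100 to 133151 CPM (breeding trial) for this strand. Heterozygous libraries spanned 114943 to 127082 and 115396 to 135905 CPM in these cohorts. Homozygous libraries spanned 103292 to 124952 and 100847 to 108926 CPM. The part of the lower sums in the higher CPM of the cluster members was not tested.

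miRNAs enriched in brain, such as miR-124, miR-9, and miR-153, had summed CPM of 7646, 10692, and 11068 in virgin WT, 14420.3, 15013, 15029.5, and 15983 in *Zeb1 200H*, and 19430.2, 17148, 18902, and 15297 in *Zeb1 200M* libraries. The breeding trial sums were 13465, 13341, 11475, and 14026 in WT, 19036, 16007, and 19463 in *Zeb1 200H*, and 24434, 23673, and 24298 in *Zeb1 200M* libraries. The summed CPM of the brain list was thus higher in all mutant libraries than in all WT libraries of both cohorts. miR-153-3p was its most abundant name, and none of its 13 virgin or 11 breeding trial names was at 0 in all libraries.

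By edgeR with Benjamini-Hochberg adjustment, 2 of 13 brain names were called higher in virgin *Zeb1 200M* and 2 in *Zeb1 200H*, and 0 lower, against 6.49% and 5.06% of all miRNAs called. Once WT replicate 1 was left out, these were 5 higher and 1 lower, against 23.9%, and 4 higher and 1 lower, against 21.6%. Of 10 names tested in the breeding trial cohort 3 were higher and 1 lower in *Zeb1 200M*, against 35.9%, and 1 was higher in *Zeb1 200H*, against 12%. The part of brain tissue in the levels of the cluster members was not tested.

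Blood and immune miRNAs, led by miR-451a of red blood cells, had summed CPM of 6087, 8858, and 11048 in virgin WT, 9741, 20552, 12628, and 11463 in *Zeb1 200H*, and 11705, 10852, 11013, and 12754 in *Zeb1 200M* libraries. Their breeding trial sums were 6619, 9312, 6350.1, and 6935 in WT, 7854, 9677, and 8567 in *Zeb1 200H*, and 8898, 9397, and 12735 in *Zeb1 200M* libraries. The groups overlapped in both cohorts. None of the 9 virgin or 7 breeding trial names was at 0 in all libraries.

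edgeR called 0 of 9 blood and immune names in either virgin comparison with WT, against 6.49% and 5.06% of all miRNAs, with 1 and 2 called higher without WT replicate 1, against 23.9% and 21.6%. In the breeding trial cohort it called 3 of 6 tested higher in *Zeb1 200M*, against 35.9%, and 0 in *Zeb1 200H*, against 12%. The part of blood in the levels of the cluster members was not tested.

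The other large imprinted miRNA cluster of the mouse, miR-379 to miR-410 of the *Dlk1*-*Dio3* region, is expressed from the maternal allele and offers a comparison for a cluster of many hairpins. In the virgin cohort 76 of its names were listed and 68 tested in each comparison with WT, and edgeR with Benjamini-Hochberg adjustment called 0 higher and 2 lower in both, against 6.49% and 5.06% of all miRNAs called. Without WT replicate 1 it called 9 higher and 9 lower of 69 in *Zeb1 200M*, against 23.9%, and 8 higher and 12 lower of 68 in *Zeb1 200H*, against 21.6%. In the breeding trial cohort it called 5 higher and 4 lower of 41 in *Zeb1 200M*, against 35.9%, and 1 higher and 1 lower of 40 in *Zeb1 200H*, against 12%. No test of a difference between the clusters was made.

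Median log2 fold changes of the *Dlk1*-*Dio3* names against WT were −0.12 in *Zeb1 200M* and −0.08 in *Zeb1 200H* of the virgin cohort (−0.09 and −0.15 without WT replicate 1), and 0.00 and 0.08 in the breeding trial cohort. Its summed CPM averaged 36821 in WT, 40733 in *Zeb1 200H*, and 41454 in *Zeb1 200M* of the virgin cohort, far above the 2371.5 to 2764 CPM of the *Sfmbt2* families. The breeding trial means were 44725 in WT, 50676 in *Zeb1 200H*, and 51023.5 in *Zeb1 200M*. There, on the CPM scale, all mutant libraries (48796 to 52210 CPM) were above all WT libraries (41654 to 47746 CPM). The sum over the *Sfmbt2* families did the same on that scale. The *Dlk1*-*Dio3* sums were not scaled by TMM, so this likeness of the clusters was seen in CPM only. Of the *Dlk1*-*Dio3* names, miR-654-3p and miR-654-5p were at 0 in all virgin libraries, and 7 were at 0 in all breeding trial libraries.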

How the data were processed

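The 6 small-RNA-seq tables of pituitaries, each holding 2 genotypes of a cohort, were used as deposited. Adapters had been cut off by the authors with cutadapt, and reads were retained if 100% of bases reached a quality score of 30. The authors matched the first 19 bases (virgin, TargetScanMouse Release 7) or 18 bases (breeding trial, miRBase version 20) of each read to a dictionary. As deposited, the counts are raw read counts per miRNA and library, and these alone were used here. The signal columns hold counts that the authors divided by DESeq2 size factors. The authors' comparison columns hold log2 fold changes with their standard errors, a Wald score, and p values, and were not used. Each library was in 2 tables with the same counts.

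CPM is the raw count over the counted reads of its library, scaled to a common total. The whole table of each pair of genotypes was fitted in edgeR 4.0.16 (R 4.3.3) by the quasi-likelihood F test with TMM scaling and filterByExpr (minimum count 10, minimum total count 15), with Benjamini-Hochberg adjustment over all miRNAs tested and a threshold of 0.05. The rows of the members were then read out. SE is the log2 fold change over the square root of F. The interaction was fitted on the 1816 names common to both cohorts. Python 3.11.15, pandas 2.3.3, scipy 1.17.1, and matplotlib 3.10.9 were used for summaries, intervals, and figures, GENCODE M21 for *Sfmbt2*, and RefSeq (GRCm38.p6) for hairpins and sequences.

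Members given by name with their value in each library are the 10 of highest mean CPM in each cohort, the most abundant of each family, and those called in any of the 6 comparisons. Members called without WT replicate 1 were added after their values were seen. Members and lists (pituitary and endocrine, brain, blood and immune, and *Dlk1*-*Dio3* miRNAs) were chosen with earlier results of these data known. Alternatives were DESeq2 1.42.0, DESeq2 size factors in edgeR, no filter on low counts, a common fit of 3 genotypes, the replicate number as a replicate block, limma 3.58.1 voom with weights for sample quality, TMM-scaled sums, a minimum mean count of 50, and each library left out. DESeq2 shares are over all miRNAs with a read, including any that its own filter left without an adjusted p. They are therefore not on the same base as the edgeR shares made with the filter on low counts. The check of pairing used deviations from the genotype mean. Those of same-numbered libraries correlated at 0.146 to 0.172 in all 3 breeding trial pairs of *Zeb1 200H* with WT, and in the other comparisons at least 1 pair was at 0.0399 or below. Pairs of unlike number in that breeding trial comparison ranged from −0.329 to 0.152, so a pairing by number was not established. The fits were also tested on simulated data with known changes.

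RNA input was 3 µg in the virgin cohort and 0.5 µg in the breeding trial cohort, per the labels, whereas the paper's methods state 2 µg for the virgin libraries. Mature strands that are alike in the matched bases were taken to be counted under a merged name or under whichever name the dictionary kept, so counts of single names are uncertain.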

Additional observations from a re-analysis of the deposited data

Results flagged for a closer look

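In groups of 4 libraries, the highest or lowest library was checked for a gap to the nearest of the others that was large beside the range of the group. Of 41 groups of the named members and their sums, 8 had such a library, where chance alone marks about 1 in 20 groups, and the libraries are shared by all members, so these are not independent.

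In virgin *Zeb1 200H*, replicate 3 was far above the other 3 libraries for 5 members. miR-467a-5p was at 597 CPM there and at 459 to 473 CPM in the others. miR-669c-5p was at 216 CPM, and the others were at 171 to 177 CPM. miR-466a/d/e-3p was at 179 CPM, with the others at 132 to 137.8 CPM. miR-466b/c/p-3p was at 109 CPM, compared with 92.8 to 94.8 CPM. miR-466c-5p was at 57.3 CPM, compared with 49.2 to 49.6 CPM.

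In virgin *Zeb1 200M*, replicate 1 was far below the other 3 libraries. miR-669d-5p was at 123 CPM there and at 153.9 to 158 CPM in the others. miR-466c-5p was at 42.4 CPM, compared with 49.997 to 51.0 CPM. The summed CPM of all members was 2257 there and 2811 to 2911 in the others. The cause of these differences was not tested. WT replicate 1 of the virgin cohort could not be checked in this way, since its group has 3 libraries.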

How the results depend on the processing

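Counts of members called in the virgin cohort were 0 in each comparison with WT by all alternatives but limma voom, which gave 2 (*Zeb1 200M*) and 6 (*Zeb1 200H*), and leaving out a library, which gave 0 to 3 and 0 to 5, with the highest counts without WT replicate 1. In the breeding trial cohort *Zeb1 200M* had 1 by DESeq2, 2 with the replicate block, and 1 to 4 with a library left out, and *Zeb1 200H* had 0 by DESeq2, 0 by voom, 0 with the replicate block, and 0 to 1 with a library left out. *Zeb1 200M* against *Zeb1 200H* had 0 in both cohorts throughout. For the interaction of cohort with *Zeb1 200M*, 2 members passed without a filter on low counts, in a fit that included virgin WT replicate 1. The virgin WT sum moved to 2999 CPM after TMM scaling. A minimum mean count of 50 left 34 virgin and 0 breeding trial members. Direction was followed for 38 log2 fold changes, 26 virgin and 12 breeding trial, of 14 named members. Members added after their values were seen, and some comparisons of the 14, were not among these. Of the 38, 21 kept their direction under each alternative, and 17 did not, of which 16 were virgin comparisons with WT. For virgin *Zeb1 200M* against WT the values by voom, then the lowest and highest with a library left out, were −0.0357, −0.0182 and 0.36 for miR-466c-5p (0.20 in edgeR), 0.0917, −1.06 and 0.18 for miR-467a-5p (−0.76), 0.13, −1.10 and 0.18 for miR-467d-5p (−0.76), 0.17, −0.39 and 0.23 for miR-467e-5p (−0.21), 0.0186, −0.43 and 0.0785 for miR-669a/o-3p (−0.29), and 0.14, −0.20 and 0.20 for miR-669a/p-5p (−0.07, and 0.0155 without a filter). miR-669b-5p went from 0.11 to −0.0159 by voom. With a library left out, miR-669c-5p (−0.58) ranged from −0.80 to 0.0333 and miR-669d-5p (0.04) from −0.0079 to 0.14. For virgin *Zeb1 200H* against WT the same values were 0.17, −0.99 and 0.24 for miR-467a-5p (−0.68), 0.14, −1.11 and 0.16 for miR-467d-5p (−0.77), 0.20, −0.37 and 0.25 for miR-467e-5p (−0.17), 0.11, −0.32 and 0.17 for miR-669a/o-3p (−0.18), 0.0901, −0.25 and 0.13 for miR-669a/p-5p (−0.12), and 0.0479, −0.72 and 0.10 for miR-669c-5p (−0.49). miR-466b/c/p-3p (−0.43) ranged from −0.62 to 0.0305 with a library left out. miR-467e-5p, *Zeb1 200M* against *Zeb1 200H* in the breeding trial, went from −0.32 to 0.15 with the replicate block. The cause of these changes was not tested. Sums of mutant groups under each alternative, counts without overlap on the TMM scale, and counts without overlap and lists without WT replicate 1, were added after the data were seen. The TMM scale lowered the virgin counts of higher members without overlap from 13 to 6 (*Zeb1 200M*) and from 22 to 9 (*Zeb1 200H*). Against WT in the breeding trial cohort, 50 to 51 of 54 members did not pass the filter in edgeR, and 19 to 21 were not tested without it.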
